A study of Mus musculus with 12 samples.

Results

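The expression of 10 glucocorticoid-responsive genes was followed in extensor digitorum longus (EDL) muscle of sedentary and wheel-trained mice: Ddit4, Cebpd, Cebpb, Nfkbia, Zbtb16, Fkbp5, Sgk1, Tsc22d3, Klf9 and Klf15. They are 10 of the 17752 genes in the table, and all 10 were among the 12744 genes that passed a filter on low values (mean of 0.5 FPKM or more). The genes were chosen by name, on measured values of these same libraries, because their levels were higher in trained muscle. The difference between trained and sedentary libraries is therefore given as a description, without a test.

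The study profiled EDL, a muscle of the lower leg made up mostly of fast fibers, by RNA sequencing in male mice to ask how loss of the corepressor RIP140 (gene Nrip1) and endurance training bear on muscle gene expression. There were 4 groups of 3 libraries: WT sedentary, strNrip1-/- sedentary, WT trained and strNrip1-/- trained. Trained mice had voluntary running wheels from 8 weeks of age, and sedentary mice had none. The strNrip1-/- mice came from floxed C57BL/6J mice bred with C57BL/6JN mice carrying Cre recombinase. Cre was driven by the muscle creatine kinase promoter, which is active in heart and skeletal muscle. It deletes the floxed Nrip1 allele, and WT controls were Cre-negative littermates. Per the study's methods, tissue was taken in the early afternoon under pentobarbital anesthesia, wheels were removed some time before endpoints, and mice that ran little were left out. The labels do not say whether a library came from 1 animal, so all tests here measure the spread between libraries.

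Glucocorticoids are adrenal steroid hormones that rise with the onset of activity, with fasting and with stress. They enter the cell and bind the glucocorticoid receptor (gene Nr3c1), which leaves its chaperones, moves to the nucleus and binds a palindromic DNA element near its target genes. In skeletal muscle the receptor is known for slowing protein synthesis, releasing amino acids and favoring lipid over glucose as fuel. Several of these target genes also answer to other signals, such as insulin, amino acids, cytokines, hypoxia and the circadian clock.

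The receptor element is the reason the following promoter sequences are shown. RefSeq promoter windows (GRCm38.p6, 250 bases before to 50 after a start site) were found for 8 of the 10 genes, 15 windows in all. No window was matched for Cebpd or Zbtb16. The full element, AGAACA and TGTTCT separated by 3 free bases, reads the same on both strands and occurred in 3 of 32851 windows of the table (0.00913%), 1 of which belonged to Sgk1. A half-site, AGAACA on either strand, occurred in 19.0% of all windows, and among the 15 windows in 3 of the 6 of Sgk1 and in 1 of the 3 of Tsc22d3. The Sgk1 stretches are on the plus strand and the Tsc22d3 stretch on the minus strand, written 5′ to 3′ with the half-sites in capitals and without any base of an annotated exon. The full element of Sgk1 spans 21993701 to 21993715 and begins 189 bases before a start site. The 3 Sgk1 stretches and the Tsc22d3 stretch are
Sgk1, chr10:21993640-21993789, with the full element: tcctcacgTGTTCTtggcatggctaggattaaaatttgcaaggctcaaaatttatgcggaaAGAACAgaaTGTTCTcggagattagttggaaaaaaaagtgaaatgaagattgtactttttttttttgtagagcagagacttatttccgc
Sgk1, chr10:21992138-21992222, with a half-site: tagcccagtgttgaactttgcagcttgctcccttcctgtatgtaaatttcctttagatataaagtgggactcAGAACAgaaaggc
Sgk1, chr10:21881934-21882083, with a half-site: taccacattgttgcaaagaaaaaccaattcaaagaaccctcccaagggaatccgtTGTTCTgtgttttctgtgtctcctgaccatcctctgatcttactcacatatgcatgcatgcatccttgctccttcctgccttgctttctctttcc
Tsc22d3, chrX:140600660-140600772, with a half-site: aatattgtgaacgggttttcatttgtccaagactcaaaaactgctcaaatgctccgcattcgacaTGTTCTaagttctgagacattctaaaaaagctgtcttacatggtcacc
These letters describe the windows and do not show binding, and the windows of Ddit4, Cebpb, Nfkbia, Fkbp5, Klf9 and Klf15 held no half-site. In the GENCODE M21 annotation the first pair of Sgk1 stretches lies in introns of Sgk1, and the other two stretches lie upstream of their genes. Elements outside the windows were not looked for.

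Some facts of the whole series touch every value. The spacing of low FPKM values put the libraries at 20.0 to 29.2 M fragments, and mitochondrial transcripts took 42.2 to 52.8% of FPKM. That share was highest in the labelled strNrip1-/- sedentary libraries, at 52.8, 51.2 and 52.8%, and no other library exceeded 47.3%. The targeted gene went against the genotype labels: Nrip1 was at 2.53 to 4.76 FPKM in the 6 libraries labelled WT and at 14.9 to 20.7 FPKM in the 6 labelled strNrip1-/-, so genotypes are called labelled WT and labelled strNrip1-/- and every genotype direction rests on the labels. Fast-fiber markers summed to 64819 to 103218 FPKM, so the defining genes of fast muscle were present, whereas slow-fiber markers summed to 32.4 to 356 FPKM. Of the 6 fast-fiber markers, Actn3, a sarcomeric actinin, was the 1 called between labelled genotypes, lower in labelled strNrip1-/- libraries, by log2 fold changes of −0.90 sedentary and −0.75 trained (limma adjusted p = 2.52e-04 and 8.17e-04). Because whole muscle was sequenced, fewer cells of a type and less RNA per cell cannot be told apart.

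All 10 genes had a higher mean in trained than in sedentary libraries of both labelled genotypes. Their median log2 fold change was 0.76 in labelled WT and 0.74 in labelled strNrip1-/- libraries, against 0.00 and 0.01 over all genes tested, of which 50.4% and 51.9% were higher. All 3 trained libraries lay above all 3 sedentary ones for 7 of the 10 genes in labelled WT (7.76% of all genes) and for 7 in labelled strNrip1-/- (9.40%). All 6 trained libraries lay above all 6 sedentary ones for Ddit4, Cebpd, Nfkbia and Klf9, as they did for 0.377% of all genes. These counts repeat the choice of the genes and support nothing. With limma and Benjamini-Hochberg adjustment, 0 genes of the whole table were called for training in labelled WT (0%) or in labelled strNrip1-/- (0%), and 1061 and 1544 had an unadjusted p under 0.05. A call needed an adjusted p under 0.05 and a change of over 1.2-fold on the log2(FPKM + 0.5) scale, which understates changes of low genes.

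**Figure D1:**
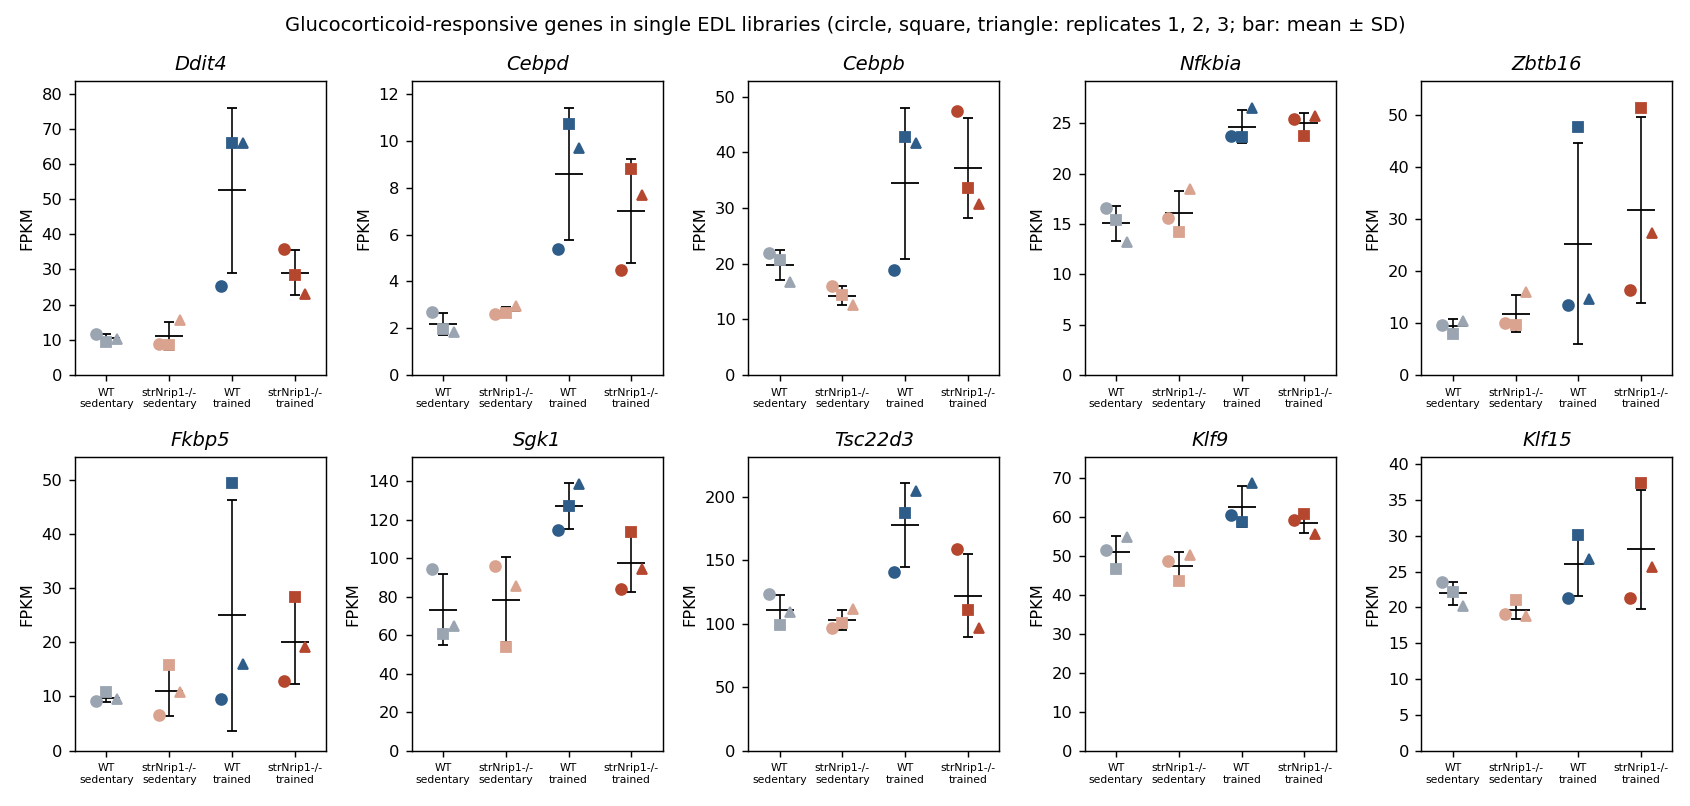
Expression (FPKM, y axis) of each gene in the 12 libraries by group (x axis), with points for single libraries and bars for the mean ± SD of 3. Nfkbia and Klf9 form tight trained groups above the sedentary ones, while single trained libraries stand high for Zbtb16 and Fkbp5, at 47.7 and 49.3 FPKM in labelled WT replicate 2.

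The regulator of growth signalling, Ddit4 (chromosome 10, 59949669 to 59951834, minus strand, GRCm38), had the largest difference of the 10 in labelled WT. It encodes REDD1, which restrains the mTORC1 kinase complex and thereby protein synthesis. Ddit4 was at 11.7, 9.34 and 10.1 FPKM in the sedentary and at 25.3, 66.0 and 66.1 FPKM in the trained libraries labelled WT. The labelled strNrip1-/- libraries gave 8.92, 8.53 and 15.7 FPKM when sedentary, and 35.9, 28.3 and 23.1 FPKM when trained. Trained and sedentary libraries did not overlap in either labelled genotype, and labelled WT replicate 1 lay far below the other two trained WT libraries. The means went from 10.4 ± 1.19 to 52.5 ± 23.5 FPKM and from 11.04 ± 4.01 to 29.1 ± 6.44 FPKM (SD, n = 3 each), and the log2 fold changes were 2.16 (SE 0.344) and 1.39 (SE 0.344).

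Cebpd and Cebpb encode C/EBPδ and C/EBPβ, bZIP transcription factors that act early in hormone and cytokine responses. Cebpd (chromosome 16, 15887286 to 15891031, plus strand) was the least expressed of the 10, at 2.69, 1.96 and 1.83 FPKM in the sedentary and at 5.37, 10.7 and 9.68 FPKM in the trained libraries labelled WT. Libraries labelled strNrip1-/- gave 2.61, 2.64 and 2.93 FPKM without and 4.50, 8.79 and 7.68 FPKM with training. Replicate 1 was the lowest trained library in both labelled genotypes, yet every trained library exceeded every sedentary one. The log2 fold changes were 1.73 and 1.17 (SE 0.264 each).

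Cebpb (chromosome 2, 167688915 to 167690418, plus strand) did not follow this order. It was at 21.9, 20.6 and 16.7 FPKM in the sedentary and at 18.8, 42.8 and 41.7 FPKM in the trained libraries labelled WT. The values in labelled strNrip1-/- muscle were 15.9998, 14.3 and 12.5 FPKM without wheels and 47.5, 33.6 and 30.6 FPKM with them. Labelled WT trained replicate 1 thus lay within the sedentary range, while in labelled strNrip1-/- replicate 1 was the highest trained library. On the log2 scale the trained-over-sedentary differences were 0.70 and 1.33 (SE 0.277 each), and without labelled WT trained replicate 1 the former was 1.09.

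The inhibitor of NF-kB, Nfkbia (chromosome 12, 55489410 to 55492647, minus strand), was the most even of the 10 across trained libraries. Its product, IκBα, holds NF-kB in the cytoplasm and is itself a target of NF-kB. Nfkbia was at 16.6, 15.4 and 13.2 FPKM in the sedentary and at 23.8, 23.7 and 26.5 FPKM in the trained libraries labelled WT. For labelled strNrip1-/- muscle, sedentary libraries gave 15.6, 14.2 and 18.5 FPKM, trained ones 25.5, 23.8 and 25.7 FPKM. The highest trained library was 1.12 times the lowest, and no trained library fell to the sedentary range. The log2 fold changes were 0.70 and 0.62 (SE 0.109 each).

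Zbtb16 and Fkbp5 varied most among trained libraries. Zbtb16 (chromosome 9, 48654297 to 48836222, minus strand) encodes the zinc finger repressor PLZF. It was at 9.70, 7.82 and 10.5 FPKM in the sedentary and at 13.5, 47.7 and 14.7 FPKM in the trained libraries labelled WT. Libraries labelled strNrip1-/- gave 9.96, 9.55 and 15.9 FPKM without and 16.4, 51.5 and 27.3 FPKM with training. Trained and sedentary groups did not overlap, but in both labelled genotypes replicate 2 stood far above the rest. On the log2 scale the trained-over-sedentary differences were 1.15 and 1.28 (SE 0.474 each). Without trained replicate 2 they were 0.58 in labelled WT and 0.86 in labelled strNrip1-/-.

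Fkbp5 (chromosome 17, 28399094 to 28517527, minus strand) encodes FKBP51, a co-chaperone that lowers the hormone affinity of the glucocorticoid receptor and so closes a feedback loop. It was at 9.10, 10.8 and 9.49 FPKM in the sedentary and at 9.54, 49.3 and 15.95 FPKM in the trained libraries labelled WT. The values in labelled strNrip1-/- muscle were 6.61, 15.7 and 10.8 FPKM without wheels and 12.9, 28.3 and 19.2 FPKM with them. Sedentary and trained libraries overlapped in both labelled genotypes, and replicate 2 was again the highest trained one. The log2 fold changes of 0.98 and 0.85 (SE 0.501 each) were 0.32 and 0.57 without trained replicate 2 of the same labelled genotype.

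The kinase gene and the leucine zipper gene were highly expressed already in sedentary muscle. Sgk1 (chromosome 10, 21882184 to 21999903, plus strand) encodes serum- and glucocorticoid-regulated kinase 1, a relative of Akt that acts on ion transport and muscle mass. It was at 94.4, 60.8 and 64.6 FPKM in the sedentary and at 115, 127 and 139 FPKM in the trained libraries labelled WT. For labelled strNrip1-/- muscle, sedentary libraries gave 96.3, 53.7 and 85.9 FPKM, trained ones 84.2, 114 and 94.3 FPKM. Labelled WT groups did not overlap, whereas in labelled strNrip1-/- trained replicates 1 and 3 lay within the sedentary range. The log2 fold changes were 0.81 and 0.34 (SE 0.218 each). With any 1 library left out, the latter ran from 0.0875, without labelled strNrip1-/- sedentary replicate 2, to 0.51.

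Tsc22d3 (chromosome X, 140539528 to 140600659, minus strand) encodes GILZ, a leucine zipper protein that carries anti-inflammatory actions of glucocorticoids. It was at 123, 98.8 and 110 FPKM in the sedentary and at 141, 188 and 205 FPKM in the trained libraries labelled WT. Libraries labelled strNrip1-/- gave 96.4, 100 and 112 FPKM without and 159, 111 and 96.7 FPKM with training. In labelled strNrip1-/- trained muscle replicate 1 alone was above the sedentary range. On the log2 scale the trained-over-sedentary differences were 0.67 and 0.22 (SE 0.180 each). Without labelled strNrip1-/- trained replicate 1 the latter was 0.0137.

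The Krüppel-like factors had the smallest differences of the 10 in labelled WT. Klf9 (chromosome 19, 23141226 to 23168134, plus strand), a repressor that also answers to thyroid hormone, was at 51.4, 46.6 and 54.7 FPKM in the sedentary and at 60.4, 58.7 and 68.5 FPKM in the trained libraries labelled WT. The values in labelled strNrip1-/- muscle were 48.7, 43.6 and 50.1 FPKM without wheels and 59.2, 60.6 and 55.5 FPKM with them. As with Nfkbia the difference was modest in size but present in every trained library, at 1.15 to 1.35 times the sedentary mean of the same labelled genotype. The log2 fold changes were 0.29 and 0.30 (SE 0.0860 each).

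Klf15 (chromosome 6, 90462576 to 90475238, plus strand) encodes an activator of amino acid catabolism and lipid use in muscle. It was at 23.5, 22.1 and 20.2 FPKM in the sedentary and at 21.3, 30.1 and 26.7 FPKM in the trained libraries labelled WT. For labelled strNrip1-/- muscle, sedentary libraries gave 19.1, 21.1 and 18.8 FPKM, trained ones 21.2, 37.3 and 25.7 FPKM. Labelled WT trained replicate 1 lay within the sedentary range and replicate 2 was the highest trained library in both labelled genotypes. On the log2 scale the trained-over-sedentary differences were 0.23 and 0.47 (SE 0.179 each), and without trained replicate 2 of the same labelled genotype they were 0.12 and 0.25.

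The trained libraries did not share these higher levels equally. Labelled WT trained replicates 2 and 3 exceeded all 3 sedentary libraries of their labelled genotype for all 10 genes, where 30.2% and 27.7% of all genes tested did so. Labelled WT trained replicate 1 did so for 7 (27.4% of all genes), with Cebpb, Fkbp5 and Klf15 at 0.95, 0.97 and 0.97 times the sedentary mean. In labelled strNrip1-/-, trained replicate 1 did so for 8 (23.9%), all but Fkbp5 and Sgk1. Trained replicate 2 did so for 9 (28.4%), all but Tsc22d3. Trained replicate 3 did so for 8 (25.9%), all but Sgk1 and Tsc22d3.

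**Figure D2:**
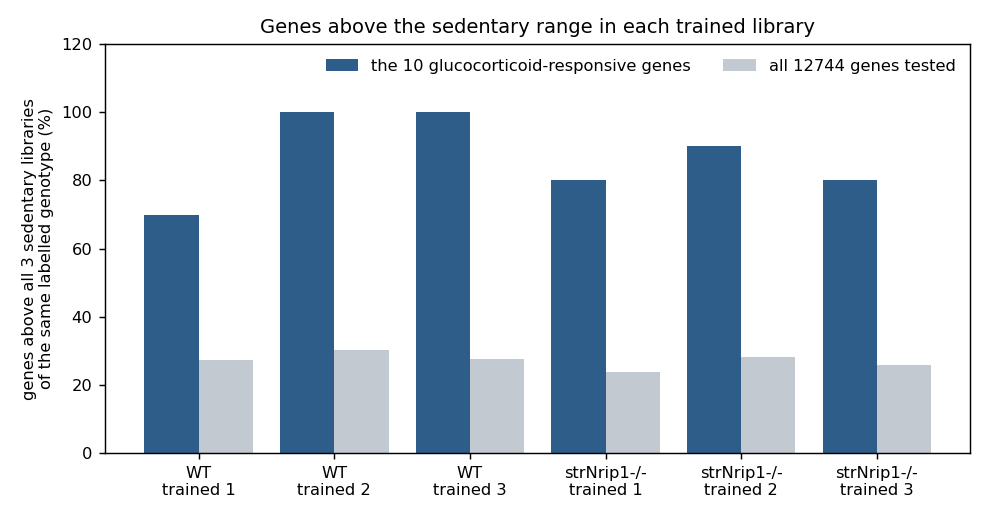
Percentage (y axis, from 0) of the 10 genes and of all 12744 genes tested that exceeded all 3 sedentary libraries of the same labelled genotype, for each trained library (x axis). Between 7 and 10 of the 10 genes did so in each library, against 23.9 to 30.2% of all genes.

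The median log2 difference of the 10 genes from the sedentary mean was 0.44, 0.96 and 0.85 in labelled WT trained replicates 1 to 3. It was 0.56, 1.06 and 0.76 in labelled strNrip1-/- trained replicates 1 to 3. Over all genes tested the corresponding medians ran from 0.00 to 0.01. Replicate 1 was thus the lowest of each trained group by this median, and replicate 2 the highest, although the replicate numbers join no animals across groups. Labelled WT trained replicate 1 was the lowest library of its group for 8 of the 10 genes, while 33.8% of all genes were lowest there.

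**Figure D3:**
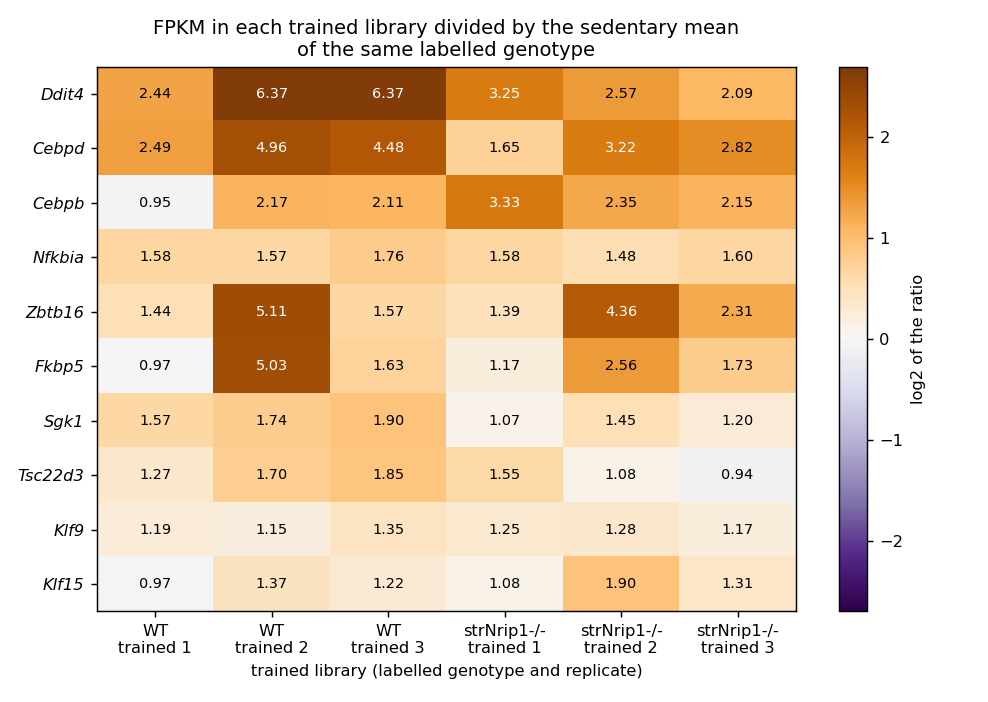
FPKM of each gene (rows) in each trained library (columns) divided by the sedentary mean of the same labelled genotype, printed in each cell and colored on a log2 scale. Ddit4 reached 6.37 times in labelled WT replicates 2 and 3, Zbtb16 5.11 and 4.36 times in replicate 2 of labelled WT and labelled strNrip1-/-, and Nfkbia 1.48 to 1.76 times in every library.

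The order of the trained libraries differed from gene to gene. Zbtb16, Fkbp5 and Klf15 were highest in replicate 2 of both trained groups, and so was Cebpd. Ddit4, Tsc22d3 and Cebpb were instead highest in replicate 1 among labelled strNrip1-/- trained libraries, where Zbtb16, Fkbp5, Klf15 and Cebpd were lowest. This grouping was made after the values were seen. The group means were then removed, which takes out differences between groups but keeps those between single libraries. Pearson r across the 12 libraries was then 0.85 for Cebpd and Klf15, 0.80 for Zbtb16 and Fkbp5, and 0.74 for Fkbp5 and Klf15. It was 0.81 for Ddit4 and Tsc22d3, 0.74 for Cebpb and Tsc22d3, and 0.73 for Ddit4 and Cebpb. The 12 pairs that join the groupings had r of −0.08 to 0.48. Ddit4 and Cebpb reached 0.48 and 0.37 with Cebpd and 0.41 and 0.36 with Fkbp5, whereas Tsc22d3 was at −0.08 to 0.07 with all 4 genes of the other grouping. Of the 45 pairs 37 had a positive r, with a median of 0.33. These are descriptions over points that share library and depth, and r uses the same trained libraries from which the groupings were read.

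**Figure D4:**
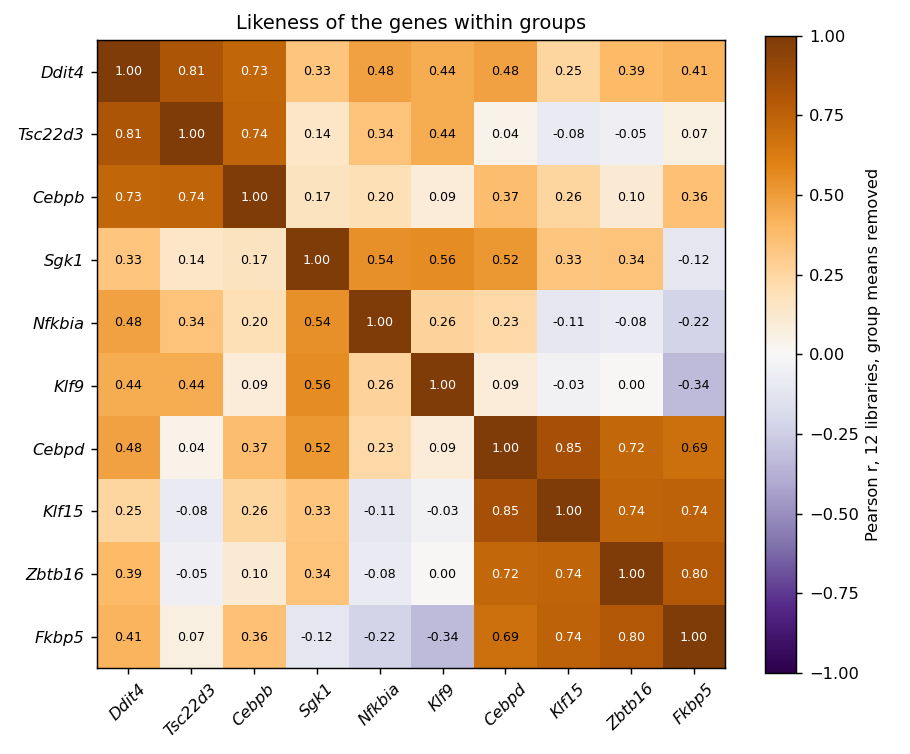
Pearson r of log2(FPKM + 0.5) between the 10 genes (rows and columns) over 12 libraries with group means removed, from −1 to 1 by color. Ddit4, Tsc22d3 and Cebpb have r of 0.73 to 0.81 with each other and Cebpd, Klf15, Zbtb16 and Fkbp5 of 0.69 to 0.85, and Fkbp5 with Klf9 is lowest at −0.34.

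The labelled genotypes were compared next. The genes were not chosen on this contrast, but both comparisons use libraries that entered the choice. The trained comparison is made of the libraries whose high levels chose the genes. Its values can therefore be shifted by the choice, and its p-values are given as a description. In sedentary muscle none of the 10 genes was called by limma (3.51% of all genes were), and none had an unadjusted p under 0.05, as 2080 of the 12744 genes did. Their median difference, labelled strNrip1-/- over labelled WT, was 0.06 on the log2 scale, against 0.00 over all genes. Cebpb alone had non-overlapping groups (20.7% of all genes did), lower in labelled strNrip1-/-, with a log2 fold change of −0.45 (95% interval −1.06 to 0.16, limma adjusted p = 0.486). For Nfkbia the interval was −0.15 to 0.33 and for Klf9 −0.29 to 0.09, whereas for Fkbp5 it ran from −1.01 to 1.19. By these intervals the genotype difference of Nfkbia and Klf9 was bounded closely and that of Fkbp5 hardly at all. The intervals use a spread shared by all 4 groups, so the trained libraries also set their width. In the sedentary groups, labelled WT first, the SD was 2.76 and 1.76 FPKM for Cebpb and 0.878 and 4.57 FPKM for Fkbp5. In the trained groups it was 13.6 and 8.98 FPKM and 21.3 and 7.74 FPKM. Intervals from the sedentary libraries alone are not given here.

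In trained muscle none of the 10 genes was called either (5.98% of all genes were), and Tsc22d3 alone had an unadjusted p under 0.05, as 2683 of the 12744 genes did. Tsc22d3 had a mean of 178 ± 33.1 FPKM in trained labelled WT and 122 ± 32.7 FPKM in labelled strNrip1-/- muscle (SD, n = 3 each). Its log2 fold change was −0.55 (95% interval −0.95 to −0.16, limma adjusted p = 0.0991). Without labelled strNrip1-/- trained replicate 1, its highest library there, it was −0.76 (limma adjusted p = 0.0240). Without labelled strNrip1-/- trained replicate 3 it was −0.40 (limma adjusted p = 0.309), and these are the ends of its range when any 1 library was left out.

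Ddit4 had a log2 fold change of −0.74 between the labelled genotypes when trained (95% interval −1.49 to 0.02, limma adjusted p = 0.250). Without labelled WT trained replicate 1 it was −1.19 (limma adjusted p = 0.0309). Without labelled WT trained replicate 2 or 3 it was −0.51 (limma adjusted p = 0.486 and 0.543), so it ran from −1.19 to −0.51 over the libraries left out. Whether Ddit4 and Tsc22d3 pass the threshold thus turned on single libraries. Sgk1 alone had non-overlapping groups (27.3% of all genes did), lower in labelled strNrip1-/-, with a log2 fold change of −0.39 (95% interval −0.87 to 0.09, limma adjusted p = 0.349). The other 7 genes had log2 fold changes of −0.27 to 0.42, with limma adjusted p-values of 0.594 to 0.980.

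**Figure D5:**
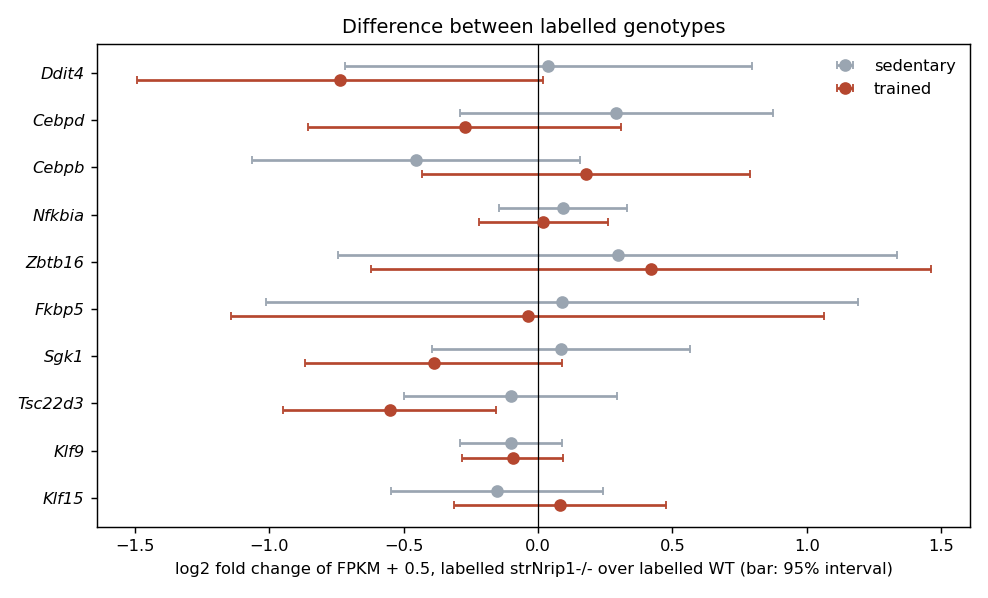
Log2 fold change between the labelled genotypes, strNrip1-/- over WT (x axis), for each gene (y axis) in sedentary and trained muscle, with points for the limma estimate and bars for its 95% interval, unadjusted for the number of genes. The interval of Tsc22d3 in trained muscle, −0.95 to −0.16, is the only one of the 20 that leaves out 0.

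The difference in training effect between the labelled genotypes was largest for Ddit4, at −0.77 (SE 0.486), and for Cebpb, at 0.63 (SE 0.392), and smallest for Klf9, at 0.01 (SE 0.122). With any 1 library left out these ran from −1.23 to −0.50 for Ddit4, from 0.25 to 0.83 for Cebpb and from −0.05 to 0.07 for Klf9. It was −0.07 (SE 0.154) for Nfkbia, −0.47 (SE 0.308) for Sgk1 and −0.45 (SE 0.255) for Tsc22d3, with ranges of −0.16 to 0.03, −0.73 to −0.31 and −0.66 to −0.30. No gene of the table was called for this interaction by limma (0%), and 989 had an unadjusted p under 0.05.

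The receptor and the enzymes that set its hormone supply were examined as the upstream part of the pathway, from a list of 15 genes of which 14 passed the filter. None was called between labelled genotypes or for training. Nr3c1, the receptor itself, was at 10.9 to 11.1 FPKM in labelled WT sedentary, 8.93 to 10.4 in labelled strNrip1-/- sedentary, 10.02 to 12.6 in labelled WT trained and 7.95 to 9.96 in labelled strNrip1-/- trained libraries. Labelled strNrip1-/- libraries were thus lower in both states. The groups did not overlap, as in either direction for 20.7% of all genes when sedentary and 27.3% when trained. The log2 fold changes were −0.18 (limma adjusted p = 0.447) and −0.34 (limma adjusted p = 0.0894). Nr3c2, the mineralocorticoid receptor, which binds the same hormones, was at 2.13 to 3.76 FPKM over all 12 libraries.

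Hsd11b1, which regenerates active glucocorticoid inside cells, is named here after its values were seen. It was at 7.32, 8.25 and 8.45 FPKM in the sedentary and at 6.79, 4.91 and 5.52 FPKM in the trained libraries labelled WT. Libraries labelled strNrip1-/- gave 6.43, 7.02 and 7.97 FPKM without and 4.08, 4.74 and 5.08 FPKM with training. Its direction was opposite to that of the 10 genes, with log2 fold changes of −0.46 and −0.57 (SE 0.128 each). Trained libraries lay below sedentary ones without overlap in both labelled genotypes. The share of all genes that did so was not counted.

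Other genes known to respond to glucocorticoids differed among themselves. Of a list of 26, 25 passed the filter, and 20 had a positive log2 fold change with training in labelled WT and 22 in labelled strNrip1-/-, with medians of 0.24 and 0.23. None was called for training. Trained groups lay wholly above sedentary ones for 3 of the 25 in labelled WT (7.76% of all genes) and for 5 in labelled strNrip1-/- (9.40%). Single trained libraries differed here too: 7, 15 and 17 of the 25 exceeded the sedentary range in labelled WT replicates 1 to 3, and 12, 18 and 12 in labelled strNrip1-/- replicates 1 to 3, against 23.9 to 30.2% of all genes.

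Some of these genes, chosen after their values were seen, repeated library patterns that only some of the 10 had. Pdk4, the kinase that shuts pyruvate out of oxidation, gave 92.2, 234 and 88.7 FPKM in trained labelled WT and 136, 338 and 90.9 FPKM in trained labelled strNrip1-/- muscle, against 24.8 to 94.0 FPKM when sedentary. Glul, glutamine synthetase, was at 185, 550 and 313 FPKM and at 277, 437 and 315 FPKM in the same trained groups, against 185 to 254 FPKM when sedentary. Plin4, a lipid droplet coat protein, was at 37.5, 107 and 58.6 FPKM and at 52.7, 89.3 and 54.6 FPKM. Replicate 2 was the highest trained library for all 3 genes in both labelled genotypes, as for Zbtb16 and Fkbp5. Over all genes tested, it was the highest for 38.7% in labelled WT and 35.3% in labelled strNrip1-/- trained libraries. Not every gene of the list did so: Irs2, Trim63 and Fbxo32 were lowest in replicate 2 among labelled WT trained libraries.

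Arrdc2, an arrestin-domain gene, and Per1, a clock repressor, took the other pattern. Trained libraries labelled WT held Arrdc2 at 38.3, 63.8 and 82.6 FPKM and those labelled strNrip1-/- at 64.7, 37.6 and 22.4 FPKM. Per1 was at 23.3, 30.2 and 28.7 FPKM and at 30.5, 22.1 and 22.6 FPKM in the same groups. Both were lowest in labelled WT replicate 1 and highest in labelled strNrip1-/- replicate 1 among trained libraries of their genotype, as were Ddit4 and Tsc22d3. Over all genes tested, 33.8% were lowest in the former library and, counted separately, 34.9% were highest in the latter.

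The atrogenes of the list, Trim63 and Fbxo32, also named after their values were seen, encode ubiquitin ligases of muscle wasting, and their labelled WT groups overlapped. Trim63 was at 96.2 to 102 FPKM in labelled WT sedentary and 101 to 117 FPKM in labelled WT trained libraries. Fbxo32 was at 14.2 to 16.9 FPKM and 13.04 to 19.0 FPKM. In labelled strNrip1-/- muscle Trim63 was at 68.03 to 78.2 FPKM without wheels and at 69.8, 108 and 69.8 FPKM with them, and Fbxo32 at 12.3 to 15.8 FPKM and at 14.3, 29.1 and 17.5 FPKM. Replicate 2 was thus the highest trained library for both there. In labelled WT it was instead the lowest trained library for both, at 101 FPKM for Trim63 and 13.04 FPKM for Fbxo32. Lpin1, a phosphatidate phosphatase of lipid synthesis, was the only gene of the list called between labelled genotypes. Its trained levels were 7.37, 11.5 and 9.80 FPKM in labelled WT and 14.3, 24.2 and 24.6 FPKM in labelled strNrip1-/- libraries, without overlap, and the difference was 1.08 on the log2 scale (SE 0.219, limma adjusted p = 0.0161).

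Close relatives of the 10 genes were followed as well. Of 23 paralogs, 21 passed the filter and none was called in any comparison, and their median log2 fold change with training was −0.01 in labelled WT and 0.08 in labelled strNrip1-/- libraries. Trained groups lay wholly above sedentary ones for 2 and 5 of the 21 (7.76% and 9.40% of all genes). Of 14 NF-kB and cytokine response genes, which share inputs with Nfkbia, Cebpb and Cebpd, 10 passed the filter and none was called. Their training medians were −0.17 and 0.06, and 2 and 7 of them had a positive log2 fold change. Cxcl1, named after its values were seen, went furthest from 0, with log2 fold changes of −0.98 and −1.29. Its level was low, at 0.0641 to 1.61 FPKM over the 12 libraries. Il6, Il1b, Tnf and Ccl2 were below the filter.

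Among 12 immediate early genes, which respond within minutes to activity and handling, 10 passed the filter and none was called for training, with medians of −0.11 and 0.23. Nr4a1, an orphan nuclear receptor, was at 87.0 to 94.2 FPKM in labelled WT sedentary and 50.9 to 66.0 FPKM in labelled strNrip1-/- sedentary libraries, with a log2 fold change of −0.66 (limma adjusted p = 0.0359). Junb, an AP-1 subunit, was at 4.62 to 4.89 FPKM in labelled WT trained and 6.13 to 8.16 FPKM in labelled strNrip1-/- trained libraries, and rose by 0.51 (limma adjusted p = 0.0337). None of 13 tested clock genes and none of 7 tested integrated stress response genes was called, with training medians of 0.03 and −0.05, and of 0.00 and 0.00.

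Of the 11 genes near Ddit4 in the mTORC1 pathway, none was called for training, with medians of 0.04 and 0.14. Sesn3, a sestrin that restrains mTORC1, was at 1.93 to 2.08 FPKM in labelled WT sedentary and 0.984 to 1.41 FPKM in labelled strNrip1-/- sedentary libraries, with a log2 fold change of −0.51 (limma adjusted p = 0.0452).

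Of 8 amino acid catabolism genes linked to Klf15, 3 were called higher in labelled strNrip1-/- sedentary (3.51% of all genes were called in either direction) and 4 in labelled strNrip1-/- trained libraries (5.98%). Bckdhb, Prodh, Aass and Tat were called in neither state, and in sedentary muscle Prodh, which starts proline breakdown, and Tat, a tyrosine aminotransferase, had log2 fold changes of −0.42 and −0.17. These 4 are named after their values were seen. Got1, an aspartate aminotransferase, was at 292 to 323 FPKM in labelled WT sedentary and 480 to 514 FPKM in labelled strNrip1-/- sedentary libraries, and rose by 0.70 there and by 0.69 in trained libraries (limma adjusted p = 8.08e-04 and 8.92e-04). Bckdha, a subunit of the branched-chain ketoacid dehydrogenase, rose by 0.58 and 0.74 (limma adjusted p = 0.00691 and 0.00140). Gpt, an alanine aminotransferase, rose by 0.45 and 0.58, and Bcat2, a branched-chain aminotransferase, by 0.46 in trained libraries (limma adjusted p = 0.0183). None of the 8 was called for training, and their training medians were −0.07 and 0.09.

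Markers of other cell types were read beside these values. The 5 slow-fiber markers summed to 356 FPKM in labelled WT trained replicate 2, the library highest for Zbtb16 and Fkbp5 in its group, and to 62.1 and 32.4 FPKM in replicates 1 and 3. In labelled strNrip1-/- trained libraries they summed to 83.8, 196 and 140 FPKM, highest again in replicate 2. They also reached 213 FPKM in labelled WT sedentary replicate 2 and 223 FPKM in labelled strNrip1-/- sedentary replicate 1, where Zbtb16 was at 7.82 and 9.96 FPKM and Fkbp5 at 10.8 and 6.61 FPKM. The part of slow-fiber content in the trained differences was not tested.

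The 5 fibroblast markers summed to 375 to 413 FPKM in labelled WT sedentary and 501 to 539 FPKM in labelled WT trained libraries, but to 407 to 514 and 414 to 478 FPKM in labelled strNrip1-/-. The 6 adipocyte markers summed to 12.4 to 25.5 and 35.1 to 76.9 FPKM in labelled WT, and to 43.1 to 116 and 43.8 to 113 FPKM in labelled strNrip1-/- sedentary and trained libraries. The 5 blood markers summed to 753 to 1811 and 723 to 863 FPKM in labelled WT, and to 850 to 1834 and 808 to 1444 FPKM in labelled strNrip1-/-. The 6 macrophage markers stayed at 16.96 to 30.9 FPKM over all libraries. Neutrophil markers summed to at most 2.26 FPKM, with S100a8 and S100a9 listed at 0 in some libraries. The 5 Schwann cell markers summed to 105 to 152 and 75.1 to 101 FPKM in labelled WT, lower when trained without overlap, and to 79.2 to 110 and 88.5 to 131 FPKM in labelled strNrip1-/-. The 5 tendon markers gave 230 to 293 and 279 to 346 FPKM in labelled WT and 271 to 444 and 263 to 299 FPKM in labelled strNrip1-/-, and the 6 endothelial markers 70.8 to 77.3, 69.6 to 80.6, 79.2 to 89.7 and 87.6 to 90.9 FPKM in the same order. Fibroblast and adipocyte sums of labelled WT were higher when trained, also without overlap, but most of their single markers overlapped. Col1a1 (means of 57.7 and 120 FPKM) and Col1a2 (91.2 and 157 FPKM) did not overlap, whereas Pdgfra, Dcn and Lum did. Among adipocyte markers Cfd and Retn did not, whereas Adipoq, Lep, Plin1 and Cidec did. The part of these cell types was not tested.

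Among 6839 other genes of mean level 5 FPKM or more, those most like the mean standardized level of the 10 genes over the 12 libraries were Mast2 (Pearson r 0.90), Plod1 (0.89), Smc3 (0.89), Ankrd17 (0.88) and Wasf2 (0.87). Mast2, a microtubule-associated kinase gene, was at 32.7 to 39.0 FPKM in the 6 sedentary libraries and at 39.0, 59.6 and 44.99 FPKM in labelled WT trained and 41.3, 46.0 and 38.6 FPKM in labelled strNrip1-/- trained ones. With group means removed, the most alike were Prpf4b (0.96), Mcf2l (0.91), Mxd4 (0.91), Nfkb1 (0.90) and Tnip1 (0.89). Nfkb1 and Tnip1 act in the NF-kB pathway, as Nfkbia does. The trained levels of Nfkb1 were 7.28, 8.62 and 9.50 FPKM in labelled WT and 9.36, 10.4 and 9.49 FPKM in labelled strNrip1-/- libraries. Its sedentary levels were 10.3, 9.51 and 9.67 FPKM and 8.69, 7.63 and 8.89 FPKM in the same order. Unlike the 10 genes, Nfkb1 was thus lower in trained than in sedentary labelled WT libraries, and it was higher in labelled strNrip1-/- ones (log2 fold changes of −0.21 and 0.21). These are the top of a ranking of many genes over 12 libraries, given as a description.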

How the data were processed

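RNA from EDL muscle was DNase-treated, and the library kit lost the strand, so reads of a gene and of one antisense to it cannot be told apart. Per the study's methods and the submitters' processing notes, the authors quantified reads with Salmon 1.10.2 against mm10, summed transcripts to genes with tximport and used DESeq2 1.44.0. The deposited values are FPKM for each gene and library, computed by the authors. The annotation release and the function that gave FPKM are not given in the sources used here. The table also holds the authors' log2 fold changes and adjusted p-values for 4 comparisons, which were not used.

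Groups and replicate numbers came from the labels. Values were transformed to log2(FPKM + 0.5), genes averaging 0.5 FPKM or more were kept, and 4 group means were fitted to all 12 libraries with limma 3.58.1 (R 4.3.3, trended prior). Two-sided tests were adjusted by Benjamini-Hochberg over all 12744 genes of a contrast. The fit was tested on simulated data. Alternatives were other pseudocounts, filters and scalings, only the groups compared, a replicate block and leaving out each library. Libraries of the same replicate number mostly did not deviate together (r from −0.10 to 0.24, above 0.1 in 5 of 18 pairs). The highest r joined replicate 2 of labelled strNrip1-/- sedentary and of labelled WT trained muscle. The labels name no pairs, and numbers were not treated as pairs. Coordinates come from GENCODE M21 (GRCm38, 17732 identifiers matched) and promoters from RefSeq. Fragment numbers were estimated from 1613 single-transcript genes over 1500 nt, where 99.1 to 99.6% of values lay within 0.15 of a whole number. No 2 replicates held identical values, and the labels name no batch.

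The genes and all lists were chosen with earlier results of these data known. Named were the 10 genes, listed genes called between labelled genotypes (up to 4 per list), the receptors, and the 5 genes most like the 10 with and without group means. Others are said to be named after their values were seen.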

Additional observations from a re-analysis of the deposited data

How the results depend on the processing

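No call was made for the 10 genes between labelled genotypes in sedentary muscle or for the interaction under any alternative. In trained muscle the count of called genes was 0 to 1 when single libraries were left out and 0 otherwise. For training, given only as a description, the counts were 0 to 2 in labelled WT and 0 to 1 in labelled strNrip1-/- when single libraries were left out. With a mean of at least 5 FPKM 3 genes were called in labelled WT, and with rescaling to the same FPKM sum 3 were called in labelled strNrip1-/-. That rescaling moved the median of all genes by −0.14 (genotype, sedentary) and 0.16 (training, labelled strNrip1-/-). With rescaling to the same nuclear FPKM sum, taken without mitochondrial transcripts, these medians were 0.07 and −0.02. Rescaling to the same FPKM sum turned small sedentary genotype differences to −0.11 (Ddit4), −0.0597 (Nfkbia), −0.0604 (Fkbp5) and −0.0700 (Sgk1) and the trained one of Fkbp5 to 0.0249. Quantile normalization turned the trained one of Nfkbia to −0.00972. All 10 training differences stayed positive in both labelled genotypes when any 1 library was left out, though in labelled strNrip1-/- that of Tsc22d3 went from 0.22 to 0.0137 and that of Sgk1 from 0.34 to 0.0875. Leaving out single libraries gave sedentary genotype log2 fold changes of −0.23 to 0.19 for Ddit4, −0.00921 to 0.18 for Nfkbia, −0.20 to 0.40 for Fkbp5 and −0.0812 to 0.34 for Sgk1. It gave trained ones of −0.21 to 0.38 for Cebpb, −0.00823 to 0.0733 for Nfkbia, −0.000551 to 0.995 for Zbtb16, −0.54 to 0.61 for Fkbp5 and −0.14 to 0.26 for Klf15. The cause of these shifts was not tested. Over all alternatives, 1004 of the fold changes of the 10 genes kept their direction and side of the threshold, and 22 reversed direction. A further 12 moved without a reversal, and 2 became stronger. With a replicate block 0 of the 10 genes were called in any comparison, and the numbers are not pairs in the labels (4 of 12 libraries correlated best with their own number). Over all genes, calls between labelled genotypes went from 447 to 166 (sedentary) and from 762 to 445 (trained) when only the groups compared were fitted, to 441 and 756 with the replicate block, and to as few as 163 without labelled WT sedentary replicate 1 and 315 without labelled strNrip1-/- trained replicate 3. Training calls over all genes went from 0 to 150 in labelled strNrip1-/- with rescaling to the same sum, and to 3 with rescaling to the same nuclear sum. They went to 8 in labelled WT and 5 in labelled strNrip1-/- with a mean of at least 5 FPKM, and to 30 in labelled WT without labelled WT trained replicate 1. With 3 libraries a group, differences as wide as those of Fkbp5 and Zbtb16 were bounded only widely.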
